A study of Mus musculus with 4 samples.

Results

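The 44 genes described here encode the machinery of mitosis and cytokinesis and were taken by symbol from the 23990 genes of the deposited tables, where all 44 were found. They comprise 5 genes of the cyclins, Cdk1 and its activator Cdc25c, 2 mitotic kinases, 4 genes of the chromosomal passenger complex, 4 of the spindle checkpoint, 8 of the kinetochore and centromere, 6 of the ubiquitin pathway and of chromatid separation, 6 of spindle motors and assembly, 7 of cytokinesis and 2 chromosome proteins.

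Mitosis separates the copied chromosomes into 2 daughter cells. The cyclin-dependent kinase Cdk1, with its cyclin partners, starts it. The spindle motors and the kinetochores, protein plates on the centromeres, then line the chromosomes up. A checkpoint holds the cell until every kinetochore is attached, the anaphase-promoting complex releases the sister chromatids, and the cytokinesis proteins pinch the cell apart. In mammalian cells most of these genes are transcribed in the G2 phase and in mitosis, so their messenger RNA is abundant in populations that hold dividing cells. Alveolar type 1 (AT1) cells, the flat cells of the gas-exchange surface, are generally regarded as cells that rarely divide.

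RNA-seq was made from AT1 cells sorted from strips of lung edge of mice on a mixed B6 and 129 background at postnatal day 3 or 4. By their labels, the Sox2-labelled libraries (n = 2) have the genotype Scnn1a-Cre; Rosa[Sox2/+], a Cre-dependent Sox2 transgene, and WT-labelled libraries (n = 2) have Scnn1a-Cre; Rosa[mTmG/+], a Cre-dependent membrane reporter. Both labels therefore include Cre driven from Scnn1a, an epithelial sodium channel gene, and the mice labelled WT are not free of transgenes. Whether the 2 libraries of a label came from different mice is not stated, so p-values measure the spread between libraries, which may be technical.

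The level of Sox2 went against the labels. It was 1.41 and 1.99 FPKM (a fragment count scaled by transcript length and library depth) in Sox2-labelled libraries, against 302 and 477 FPKM in WT-labelled libraries. Transgene and endogenous Sox2 are counted together in the tables. Whether the labels were exchanged was not tested. Every direction below follows the labels as deposited, and read by the level of Sox2 each one turns round. The deposited values carry no read counts, so depth is unknown. For genes of at least 1 FPKM, the deposited bounds lay a median of 7.93% and 12.4% away from the value in Sox2-labelled libraries and 7.79% and 9.89% in WT-labelled libraries. In WT-labelled replicate 2, genes for small RNAs held 50.9% of all FPKM, against 5.76% to 19.1% in the other libraries.

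Most mitotic genes were lower under the label Sox2. Of the 44, 27 were lower, 0 were higher and 17 did not pass, by limma on log2(FPKM + 1) with Benjamini-Hochberg adjustment over all 12040 genes tested and a threshold of 0.05. All 44 passed the filter on low values, a 4-library mean of 1 FPKM or more, and were tested. Among all tested genes 8.11% were lower and 4.2% higher. The median log2 difference, labelled Sox2 minus labelled WT, was -2.03 over the 44 genes, with a range of -3.53 to -0.04, and -0.29 over all tested genes. The 2 values labelled Sox2 lay below the 2 labelled WT for 41 of the 44 genes, as they did for 42.5% of all tested genes. The exceptions were Ndc80, Kif20a and Pttg1. The mean labelled WT was at least 2 times the mean labelled Sox2 for 43 genes, against 19.9% of all tested genes, and at least 4 times for 37, against 4.82%. For 37 genes the deposited upper bounds of both Sox2-labelled libraries lay under the lower bounds of both labelled WT, against 29.1% of all tested genes.

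Summed over the 44 genes, the level was 247 and 101 FPKM in Sox2-labelled libraries and 1392 and 595 FPKM in WT-labelled libraries. The 2 libraries of each label differed, yet the ranges did not overlap. The means were 174 ± 103 and 994 ± 563 FPKM (SD, n = 2 each), a 5.71-fold difference. The fold was 9.84 without Sox2-labelled replicate 1, 4.02 without Sox2-labelled replicate 2, 3.42 without WT-labelled replicate 1 and 8.00 without WT-labelled replicate 2. An exact permutation test of 2 against 2 values cannot give a p-value below 0.333. The median of the 44 genes was 5.15 and 1.60 FPKM in Sox2-labelled libraries and 24.7 and 9.81 FPKM in WT-labelled libraries, while the median of all tested genes was 8.28 and 6.05 FPKM under the label Sox2 and 10.0 and 7.72 FPKM under the label WT. Mitotic genes thus lay mostly under the typical gene in Sox2-labelled libraries, where 7 and 2 of the 44 exceeded that median. They lay mostly above it in WT-labelled replicate 1, where 40 did, while in WT-labelled replicate 2 the split was nearer even, with 24 of the 44 above. In RNA from a sorted population, fewer dividing cells and less RNA per cell cannot be told apart.

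**Figure D1:**
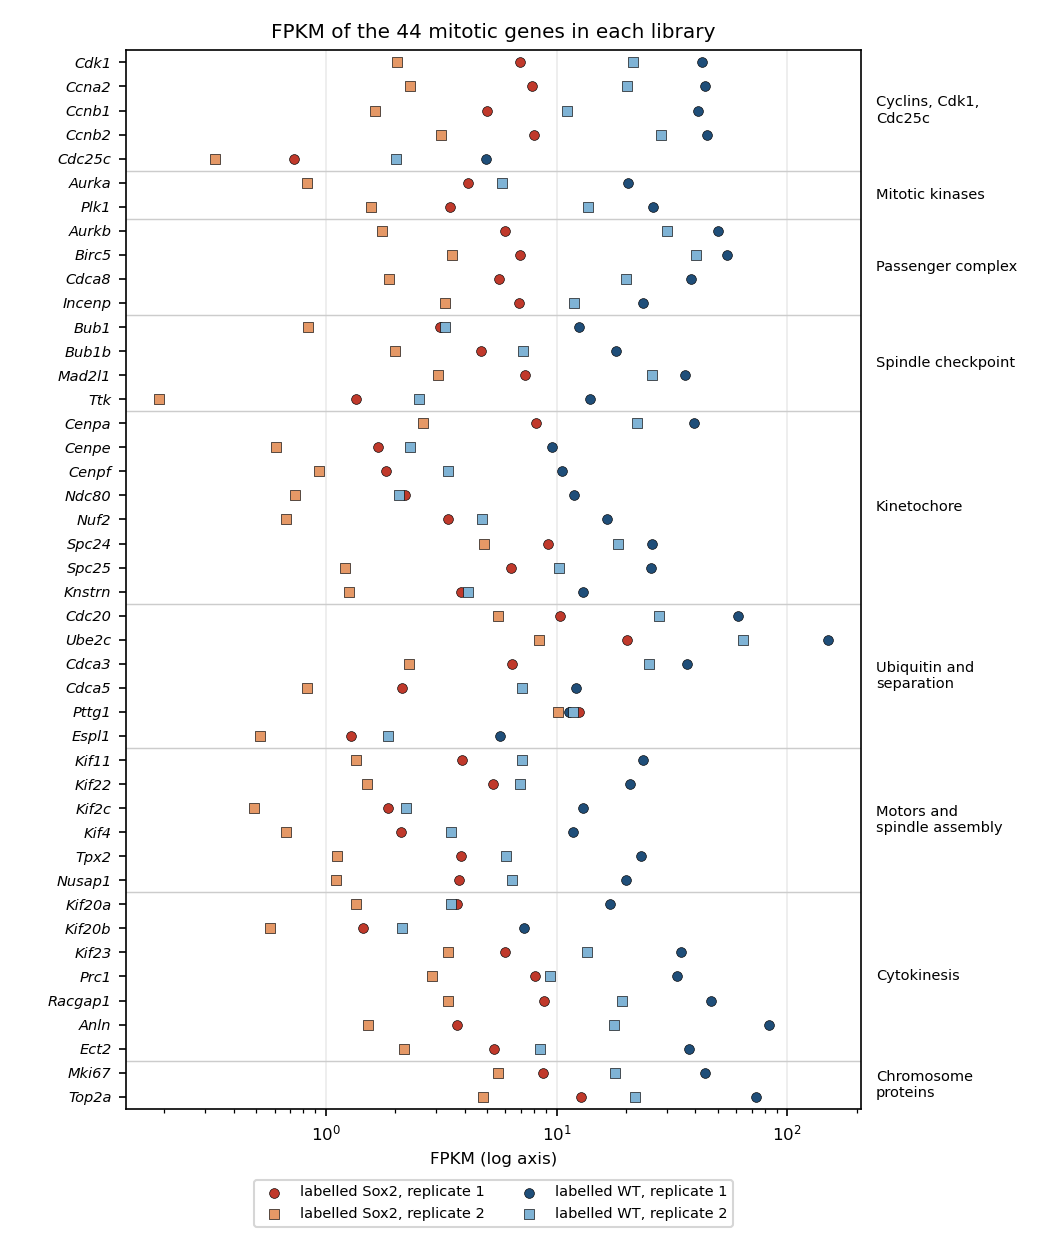
FPKM of each of the 44 mitotic genes (rows, grouped by role) in each library on a log axis, with 1 point per library, red and orange for labelled Sox2 and dark and light blue for labelled WT. The points labelled Sox2 lie left of WT-labelled libraries for 41 genes, and the 4 points of Pttg1 lie together between 10.2 and 12.5 FPKM.

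The count of calls depended on single libraries. It was 20 without Sox2-labelled replicate 1, where 3.5% of all tested genes were lower, and 2 without Sox2-labelled replicate 2, where 0.955% were. It was 17 when WT-labelled replicate 1 was left out (7.37% of all genes) and 43 when WT-labelled replicate 2 was (10.9%). In those fits the lone library of a label is assumed to vary like the other label. The median log2 difference of the 44 genes was -2.59, -1.48, -1.24 and -2.72 in the same 4 fits, and their median fold, 5.45 with all libraries, was 11.0, 3.80, 2.64 and 8.19. Aurkb and Birc5 were the members that passed in all 4.

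Scaling moved the counts as well. Rescaling by median of ratios, which moves the median of all genes to 0.00, left 20 members lower (5.7% of all genes) and ended the calls of Ttk, Spc25, Kif11, Tpx2, Nusap1, Ect2 and Top2a. It gave 964 genes higher and 686 lower among all tested (58.4% of the calls higher, against 34.1% as deposited). Quantile normalization gave 980 and 827 (54.2% higher), with 21 members lower (6.87% of all genes): the same 7 calls ended and Cdc25c passed. Rescaling without small RNA genes gave 805 and 671 (54.5% higher), with 18 members lower (5.57% of all genes), and ended the calls of Ccnb1 and Incenp besides those 7. The robust variance model left 24 members lower (11.2% of all genes) and ended the calls of Ccnb1, Ttk, Spc25, Tpx2, Anln, Ect2 and Top2a, while Cdc25c, Bub1b, Cenpf and Kif4 passed. No member was higher under any of these alternatives. The member median lay 1.74 below the median of all genes as deposited and between 1.75 and 1.76 below it under the rescalings. Median-of-ratios rescaling and rescaling without small RNA genes multiply all genes of a library by the same factor. All differences then shift nearly alike, so this distance could hardly move under them.

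The promoters of the called genes are shown because many G2 and mitosis genes share 2 short elements near their start. One is the cell cycle homology region (CHR), with the core letters TTTGAA, which binds the MuvB complexes, and the other is the CCAAT box, which binds NF-Y. Below are 5 promoters from RefSeq (GRCm38.p6), each with 120 bases before and 30 bases after the annotated start on the gene's own strand. Capitals mark the CHR core and the CCAAT box, which on the reverse strand read TTCAAA for the core and ATTGG for the box. They belong to the most abundant member, Ube2c, and to Ccnb2, Cdk1, Cdc20 and Ccnb1, of which the last holds no TTTGAA.
Ube2c, chr2:164769809-164769958, plus strand: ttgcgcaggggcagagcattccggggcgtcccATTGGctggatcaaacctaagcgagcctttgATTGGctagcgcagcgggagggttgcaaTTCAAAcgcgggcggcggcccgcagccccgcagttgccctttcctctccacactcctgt
Ccnb2, chr9:70421525-70421674, minus strand: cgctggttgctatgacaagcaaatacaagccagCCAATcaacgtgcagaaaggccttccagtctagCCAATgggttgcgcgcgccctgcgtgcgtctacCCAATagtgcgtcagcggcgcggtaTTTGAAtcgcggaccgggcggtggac
Cdk1, chr10:69352883-69353032, minus strand: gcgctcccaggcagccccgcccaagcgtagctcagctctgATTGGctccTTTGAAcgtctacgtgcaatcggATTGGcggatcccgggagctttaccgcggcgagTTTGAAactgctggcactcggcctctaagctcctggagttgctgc
Cdc20, chr4:118437314-118437463, minus strand: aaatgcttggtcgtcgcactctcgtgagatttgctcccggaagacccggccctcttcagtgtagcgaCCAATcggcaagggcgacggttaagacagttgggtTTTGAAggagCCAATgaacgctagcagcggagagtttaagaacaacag
Ccnb1, chr13:100786457-100786606, minus strand: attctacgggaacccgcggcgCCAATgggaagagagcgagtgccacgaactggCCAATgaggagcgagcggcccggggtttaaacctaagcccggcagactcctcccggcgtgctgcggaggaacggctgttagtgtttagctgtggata

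The RefSeq table held windows of 300 bases, 250 before and 50 after the start, for 37 of the 44 genes. TTTGAA on either strand was in the window of 28 of the 37 (75.7%), against 20.2% of the windows of all 27025 genes in that table. It was in 44.9% of the windows of 78 other mitosis genes and in 12.9% of those of 31 genes of DNA synthesis. The members' windows held 37 distinct TTTGAA sites, 29 of them within 50 bases of a start, with the sites that overlapping windows of Ect2 and Prc1 share counted once. CCAAT on either strand was in 26 of the 37 windows (70.3%), against 41.1% of all. A pair of CCAAT letters whose first bases lay 30 to 34 bases apart was in 8 windows (21.6%), among them those of Ube2c, Ccnb2, Cdk1 and Ccnb1, against 1.7% of all. The E2F letters GCGGGAA were in none of the 37 windows, in 5.29% of all and in 48.4% of the windows of the DNA synthesis genes. These motifs were chosen after the data were seen, and a match is a description of letters, not of binding. TTTGAA was in 18 of the 22 windows of members that were lower (81.8%) and in 10 of the 15 windows of members that did not pass (66.7%). The 9 windows without it were those of Birc5, Bub1, Ccnb1, Cenpe, Knstrn, Mad2l1, Nuf2, Nusap1 and Pttg1, which says only that these letters are not there. The window lay within 50 bases of the start listed in the deposited tables for 34 genes, the exceptions being Kif2c, Mad2l1 and Pttg1.

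**Figure D2:**
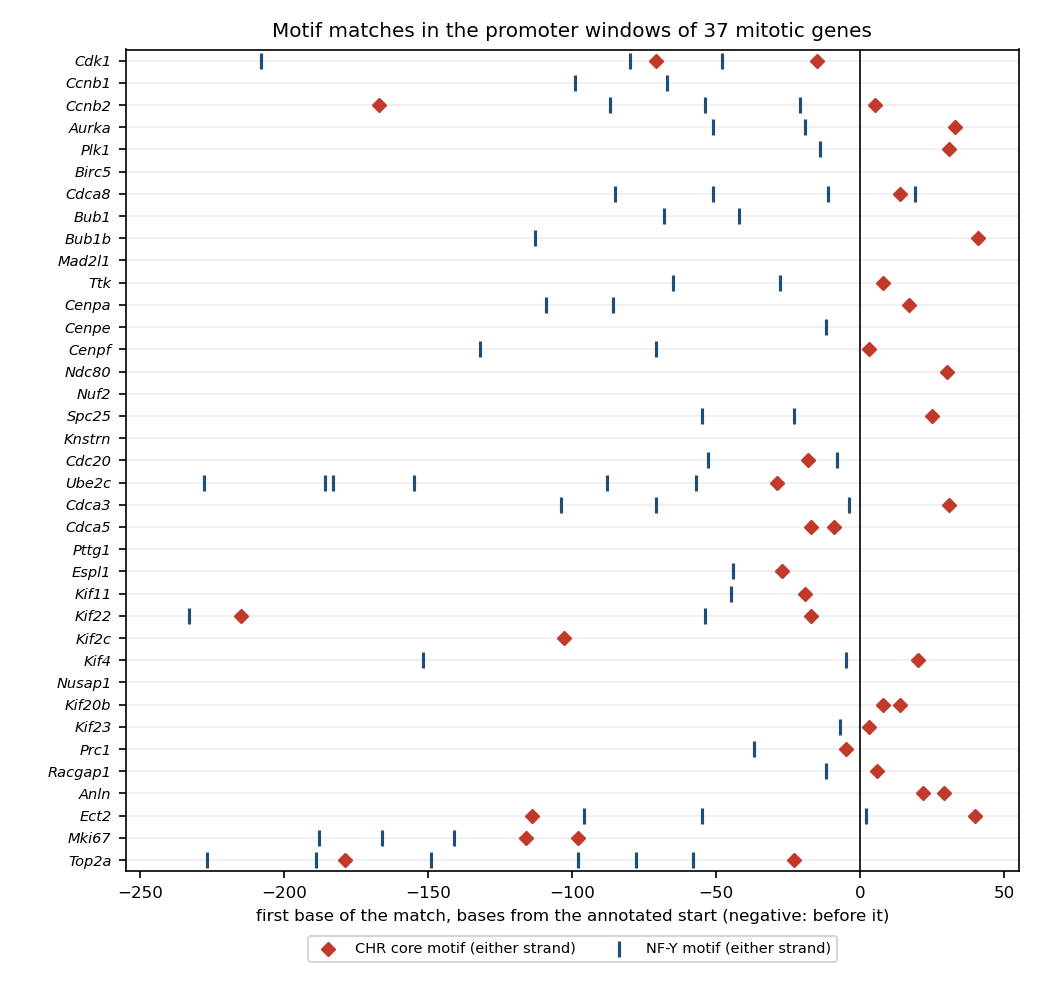
Positions of the CHR core motif (red diamonds) and of the NF-Y motif (blue bars) on either strand in the promoter windows of 37 mitotic genes, in bases from the annotated start, 1 row per gene. For genes with more than 1 window the one nearest the start in the tables is drawn, and the diamonds crowd around the start, with 29 of 37 matches within 50 bases of it.

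Of the cyclins, Cdk1 and its activator Cdc25c, 4 of 5 were lower. Cdk1, the kinase that drives entry into mitosis (mm10, chr10:69336635-69352912), stood at 6.95 and 2.03 FPKM in Sox2-labelled libraries and at 42.7 and 21.4 FPKM in WT-labelled libraries. The groups did not overlap, and the means of 4.49 ± 3.48 and 32.0 ± 15.1 FPKM (SD, n = 2 each) were 7.13-fold apart (log2 difference -2.67, SE 0.50, limma adjusted p = 0.00762). Ccna2, the cyclin of S phase and early mitosis, had 7.80 and 2.31 FPKM under the label Sox2 and 44.04 and 20.2 FPKM under the label WT (log2 difference -2.52, limma adjusted p = 0.0110). The B-type cyclins are the mitotic partners of Cdk1. Ccnb2 had 8.02 and 3.15 FPKM in Sox2-labelled libraries, against 45.1 and 28.3 FPKM in WT-labelled libraries (log2 difference -2.59, limma adjusted p = 0.00439). Ccnb1 had 5.01 and 1.64 FPKM, against 40.9 and 11.1 FPKM (log2 difference -2.50, limma adjusted p = 0.0198). The phosphatase Cdc25c, which activates Cdk1, was the scarcest of the 5, at 0.728 and 0.332 FPKM labelled Sox2 against 4.97 and 2.02 FPKM labelled WT, and missed the threshold (limma adjusted p = 0.0504). Without Sox2-labelled replicate 2 none of the 5 passed, at folds of 4.12 to 5.20. Their folds were 10.5 to 15.9 without Sox2-labelled replicate 1, 3.34 to 5.07 without WT-labelled replicate 1 and 8.07 to 12.3 without WT-labelled replicate 2.

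Of the mitotic kinases, Plk1, which acts at centrosomes, kinetochores and the midzone, had 3.46 and 1.57 FPKM in Sox2-labelled libraries and 26.1 and 13.7 FPKM in WT-labelled libraries, without overlap (7.90-fold lower, log2 difference -2.56, SE 0.44, limma adjusted p = 0.00532). Aurka, the kinase of centrosome maturation, had 4.14 and 0.831 FPKM, against 20.5 and 5.82 FPKM, and missed the threshold (log2 difference -1.98, SE 0.61, limma adjusted p = 0.0557). Neither passed without Sox2-labelled replicate 2, where Plk1 was 5.74-fold and Aurka 3.18-fold apart between the labels. The fold of Plk1 was 12.7 without Sox2-labelled replicate 1, 5.43 without WT-labelled replicate 1 and 10.4 without WT-labelled replicate 2.

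All 4 genes of the chromosomal passenger complex, which corrects faulty attachments at the centromere and later moves to the midzone, were lower. Aurkb, its kinase, had 5.99 and 1.75 FPKM in Sox2-labelled libraries, against 50.1 and 30.1 FPKM in WT-labelled libraries. Birc5, also known as survivin, had 6.93 and 3.53 FPKM, against 54.9 and 40.3 FPKM. For both, the groups lay well apart. The log2 differences were -3.19 (SE 0.47, limma adjusted p = 0.00239) for Aurkb and -3.00 (SE 0.38, limma adjusted p = 0.00109) for Birc5, at 10.4-fold and 9.10-fold. Cdca8, also known as borealin, had 5.64 and 1.89 FPKM under the label Sox2 and 38.1 and 20.01 FPKM under the label WT, 7.72-fold lower. Incenp, the scaffold that activates Aurkb, was 3.48-fold lower (limma adjusted p = 0.0398), a smaller difference than those of its partners, which was not tested as such. Without Sox2-labelled replicate 2, Cdca8 and Incenp no longer passed, and Incenp passed with WT-labelled replicate 2 left out but with no other library left out. The fold of Aurkb ranged from 6.70 without Sox2-labelled replicate 2 to 22.9 without Sox2-labelled replicate 1, and that of Birc5 from 6.87 to 13.5 with the same libraries left out.

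In the spindle checkpoint, 2 of 4 genes were lower. Mad2l1 encodes Mad2, the protein that holds back the anaphase-promoting complex, and had 7.30 and 3.07 FPKM in Sox2-labelled libraries, against 36.2 and 25.8 FPKM in WT-labelled libraries (log2 difference -2.44, SE 0.41, limma adjusted p = 0.00480). Ttk, the kinase at the top of the checkpoint, had 1.35 and 0.190 FPKM, against 14.0 and 2.53 FPKM (log2 difference -2.12, SE 0.62, limma adjusted p = 0.0488). Replicate 1 of Ttk stood 7.09-fold above replicate 2 under the label Sox2 and 5.51-fold under the label WT. Its fold of 10.7 between the labels was 43.4 and 6.12 with Sox2-labelled replicate 1 or 2 left out and 3.30 and 18.2 with WT-labelled replicate 1 or 2 left out, and it passed in the last of these 4 fits. The kinase Bub1 had 3.12 and 0.840 FPKM labelled Sox2 against 12.5 and 3.28 FPKM labelled WT, and its partner Bub1b had 4.71 and 2.00 FPKM against 18.1 and 7.18 FPKM. Neither passed (limma adjusted p = 0.118 and 0.0580). Mad2l1 was 10.1-fold lower without Sox2-labelled replicate 1 and 4.25-fold, not past the threshold, without Sox2-labelled replicate 2.

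Of the kinetochore and centromere genes, 3 of 8 were lower. Cenpa, the histone H3 variant that marks the centromere, had 8.13 and 2.64 FPKM in Sox2-labelled libraries and 39.5 and 22.3 FPKM in WT-labelled libraries (5.73-fold lower, log2 difference -2.41, SE 0.47, limma adjusted p = 0.00936). The Ndc80 complex links the kinetochore to the spindle fibre and has 4 subunits, all measured here. Spc24 had 9.16 and 4.83 FPKM under the label Sox2, against 25.8 and 18.6 FPKM under the label WT, and Spc25 had 6.32 and 1.22 FPKM, against 25.6 and 10.3 FPKM. These 2 subunits passed (log2 differences -1.57 and -2.10, limma adjusted p = 0.0261 and 0.0392). The other 2, Ndc80 (2.20 and 0.738 FPKM against 11.9 and 2.07 FPKM) and Nuf2 (3.37 and 0.670 FPKM against 16.6 and 4.77 FPKM), did not pass, and the values of Ndc80 overlapped between the labels. The motor Cenpe, the corona protein Cenpf and the spindle adaptor Knstrn did not pass either, with log2 differences of -1.51, -1.61 and -1.36. All 8 passed without WT-labelled replicate 2 and none without Sox2-labelled replicate 2, where their folds were 2.24 to 3.81. Cenpa was the member of this group that passed without WT-labelled replicate 1.

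In the ubiquitin pathway and chromatid separation, 4 of 6 genes were lower. Ube2c, the ubiquitin-conjugating enzyme of the anaphase-promoting complex (mm10, chr2:164769929-164772902), had the highest mean FPKM of the 44 genes. It stood at 20.3 and 8.36 FPKM in Sox2-labelled libraries, against 150 and 64.1 FPKM in WT-labelled libraries (7.46-fold lower, log2 difference -2.81, SE 0.47, limma adjusted p = 0.00458). Its share of the summed FPKM of the 44 genes was 8.21% and 8.28% in Sox2-labelled libraries and 10.7% and 10.8% in WT-labelled libraries. Cdc20, the co-activator of the complex and target of the checkpoint, had 10.4 and 5.58 FPKM, against 61.2 and 27.8 FPKM (log2 difference -2.29, limma adjusted p = 0.00822). Cdca3, which promotes mitotic entry, had 6.43 and 2.29 FPKM, against 36.8 and 25.2 FPKM (log2 difference -2.67, limma adjusted p = 0.00400). The cohesin protector Cdca5, or sororin, was 6.49-fold lower. None of these 4 passed without Sox2-labelled replicate 2, at folds of up to 5.27, and all 4 passed with any other library left out. Ube2c was then 12.8-fold lower without Sox2-labelled replicate 1, 4.47-fold without WT-labelled replicate 1 and 10.4-fold without WT-labelled replicate 2.

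The exception among the 44 genes was securin, Pttg1 (mm10, chr11:43420248-43426248), singled out after its values were seen. Securin holds the protease separase inactive until the anaphase-promoting complex destroys it. Pttg1 had 12.5 and 10.2 FPKM in Sox2-labelled libraries and 11.4 and 11.9 FPKM in WT-labelled libraries. The 4 values overlapped, and the means of 11.3 ± 1.67 and 11.6 ± 0.342 FPKM (SD, n = 2 each) gave a log2 difference near 0, at -0.04 (SE 0.35, limma adjusted p = 0.956). It was positive under median-of-ratios rescaling (0.29), quantile normalization (0.26), rescaling without small RNA genes (0.24), removal of the length trend (0.41) and without Sox2-labelled replicate 2 (0.10), and passed under none of them. Among the 44 genes Pttg1 ranked at place 3 and 1 in Sox2-labelled libraries and at place 39 and 20 in WT-labelled libraries. Espl1, the separase that Pttg1 restrains, had 1.29 and 0.521 FPKM labelled Sox2 against 5.69 and 1.86 FPKM labelled WT and did not pass (log2 difference -1.23, limma adjusted p = 0.115).

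Of the spindle motors and assembly factors, 3 of 6 were lower. Kif11, the motor that pushes the spindle poles apart, had 3.89 and 1.35 FPKM in Sox2-labelled libraries, against 23.8 and 7.11 FPKM in WT-labelled libraries (log2 difference -2.06, limma adjusted p = 0.0354). Tpx2, which nucleates spindle microtubules and activates Aurka, had 3.85 and 1.11 FPKM, against 23.3 and 6.05 FPKM (log2 difference -2.03, limma adjusted p = 0.0475). Nusap1, a microtubule-binding protein of the spindle, was 5.41-fold lower (limma adjusted p = 0.0417). The chromosome motor Kif22 had 5.30 and 1.51 FPKM labelled Sox2 against 20.8 and 6.92 FPKM labelled WT and did not pass (limma adjusted p = 0.0680), and neither did Kif2c, a microtubule depolymerase, or the chromosome motor Kif4. The groups did not overlap for any of the 6, with the label Sox2 lower, as for 42.5% of all tested genes. None of the 6 passed when either Sox2-labelled library or WT-labelled replicate 1 was left out, and all 6 passed without WT-labelled replicate 2. The folds were 1.90 to 2.71 without WT-labelled replicate 1 and 6.10 to 11.1 without WT-labelled replicate 2.

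Among the cytokinesis genes, 4 of 7 were lower. Anln encodes anillin, the scaffold of the contractile ring, and showed the greatest difference of the 44 genes (mm10, chr9:22331214-22389206). It had 3.70 and 1.53 FPKM in Sox2-labelled libraries, against 83.6 and 17.7 FPKM in WT-labelled libraries, where the 2 libraries stood 4.71-fold apart. The means were 2.61 ± 1.54 and 50.7 ± 46.6 FPKM (SD, n = 2 each), 19.4-fold apart (log2 difference -3.53, SE 0.61, limma adjusted p = 0.00530). The fold was 33.2 without Sox2-labelled replicate 1, 13.7 without Sox2-labelled replicate 2, 6.78 without WT-labelled replicate 1 and 32.0 without WT-labelled replicate 2, and the call was lost when Sox2-labelled replicate 2 was left out. Centralspindlin, which bundles the midzone and recruits the activator of the ring, is made of Racgap1 and Kif23. Racgap1 had 8.87 and 3.39 FPKM under the label Sox2, against 46.9 and 19.3 FPKM under the label WT, and Kif23 had 5.97 and 3.39 FPKM, against 34.6 and 13.5 FPKM. Both passed (log2 differences -2.24 and -2.04, limma adjusted p = 0.0156 and 0.0184). Ect2, the exchange factor for RhoA that centralspindlin recruits, was 6.10-fold lower (limma adjusted p = 0.0462). Its fold was 10.5 and 4.29 without Sox2-labelled replicate 1 or 2, 2.23 without WT-labelled replicate 1 and 9.96 without WT-labelled replicate 2, and it passed in the last of these 4 fits. The midzone bundler Prc1 and the motors Kif20a and Kif20b did not pass, and the values of Kif20a overlapped between the labels. None of the 7 passed without Sox2-labelled replicate 2, and Racgap1 and Anln passed without WT-labelled replicate 1, where Racgap1 was 3.15-fold and Kif23 2.89-fold lower.

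Both chromosome proteins were lower. Top2a, which untangles sister DNA, had 12.7 and 4.80 FPKM in Sox2-labelled libraries, against 73.0 and 21.97 FPKM in WT-labelled libraries (5.43-fold lower, log2 difference -2.21, limma adjusted p = 0.0268). Mki67, the source of the proliferation antigen Ki-67 that coats mitotic chromosomes, had 8.74 and 5.55 FPKM, against 44.2 and 18.0 FPKM (4.35-fold lower, log2 difference -1.87, limma adjusted p = 0.0214). The groups did not overlap for either, with the label Sox2 lower, as for 42.5% of all tested genes. Neither passed without Sox2-labelled replicate 2, at 3.74-fold and 3.56-fold, and Mki67 missed the threshold without Sox2-labelled replicate 1 and without WT-labelled replicate 1 as well. Without WT-labelled replicate 1, Top2a was 2.51-fold and Mki67 2.52-fold lower.

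**Figure D3:**
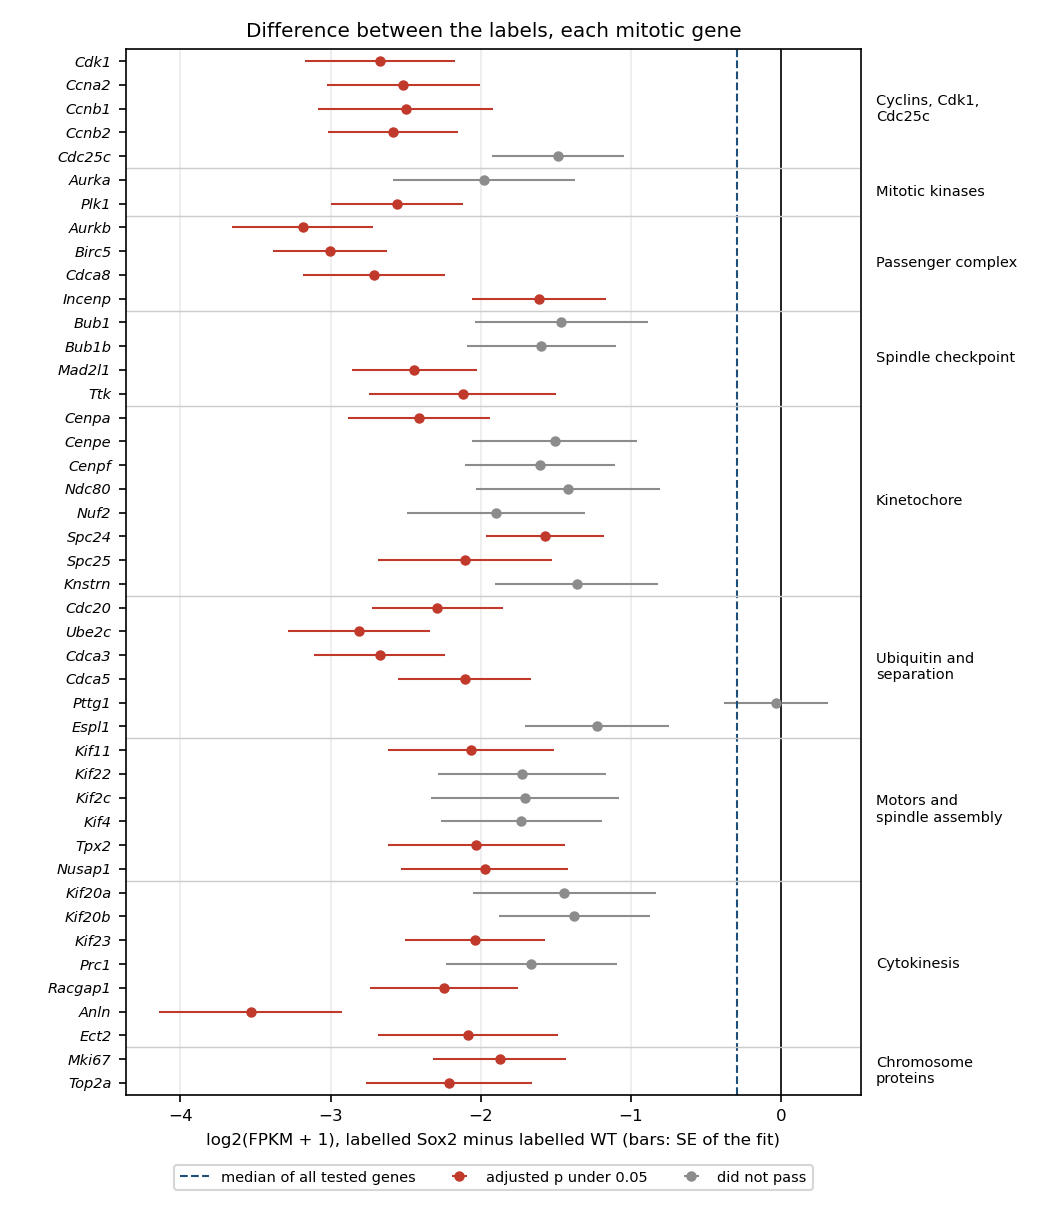
Log2 difference of FPKM + 1, labelled Sox2 minus labelled WT, for each of the 44 mitotic genes in rows by role, with bars for the standard error of the limma fit, red for adjusted p under 0.05 and grey for the rest. The dashed line is the median of all tested genes at -0.29, and all of the 44 points except that of Pttg1 lie left of it.

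The mitotic genes also differed between libraries of the same label. Replicate 1 stood above replicate 2 under both labels for 43 of the 44 genes, all but Pttg1, against 65.5% of all tested genes. The same order held for 89 of 92 other mitosis genes and 32 of 36 S phase genes, described below. Among cell markers, it held for 9 of 9 endothelial, 9 of 10 mesenchymal, 8 of 10 leukocyte and 9 of 9 surfactant-making cell markers. It held for 3 of 12 AT1 markers, 0 of 7 airway and 0 of 7 erythroid markers. The median ratio of replicate 1 to replicate 2 over the 44 genes was 2.76 in Sox2-labelled libraries and 2.78 in WT-labelled libraries, against 1.36 and 1.30 over all tested genes. Set against WT-labelled replicate 1 as 100%, the median of the 43 genes other than Pttg1 was 17.7% in Sox2-labelled replicate 1, 6.43% in Sox2-labelled replicate 2 and 33.3% in WT-labelled replicate 2. The genes ran from 4.43% (Anln) to 35.5% (Spc24) in Sox2-labelled replicate 1. In Sox2-labelled replicate 2 they ran from 1.36% (Ttk) to 18.7% (Spc24), and in WT-labelled replicate 2 from 17.1% (Kif2c) to 73.4% (Birc5). Pttg1 stood at 110%, 89.3% and 104% in these 3 libraries. WT-labelled replicate 1 serves here as a scale only.

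The difference between the 2 WT-labelled libraries varied with transcript length, which was looked at after the data were seen. The length was that of the longest protein-coding GENCODE transcript of each gene, which need not be the one expressed or the one behind the FPKM. Lengths were available for 11192 of the 12040 tested genes (93.0%) and for all 44 mitotic genes. They were split into 3 equal groups at 2348 and 4101 bases. Between WT-labelled libraries, the median log2 difference of replicate 2 minus replicate 1 was -0.18, -0.34 and -0.43 over all short, middle and long genes, and -0.89, -1.61 and -1.45 over the 16, 15 and 13 mitotic genes in those groups. Between Sox2-labelled libraries it was -0.40, -0.40 and -0.31 over all genes, and -1.15, -1.00 and -0.91 over the mitotic genes. Long mitotic genes thus had a larger negative difference in WT-labelled libraries than short ones, while in Sox2-labelled libraries the order was the opposite. Of the short, middle and long mitotic genes 11 of 16, 9 of 15 and 7 of 13 were called lower, against 12.9%, 7.16% and 4.96% of all tested genes of those lengths. With the trend on length removed in each library, 23 of the 44 genes were lower and their median was -1.73, while 1019 genes were higher and 742 lower (6.63%) among all.

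**Figure D4:**
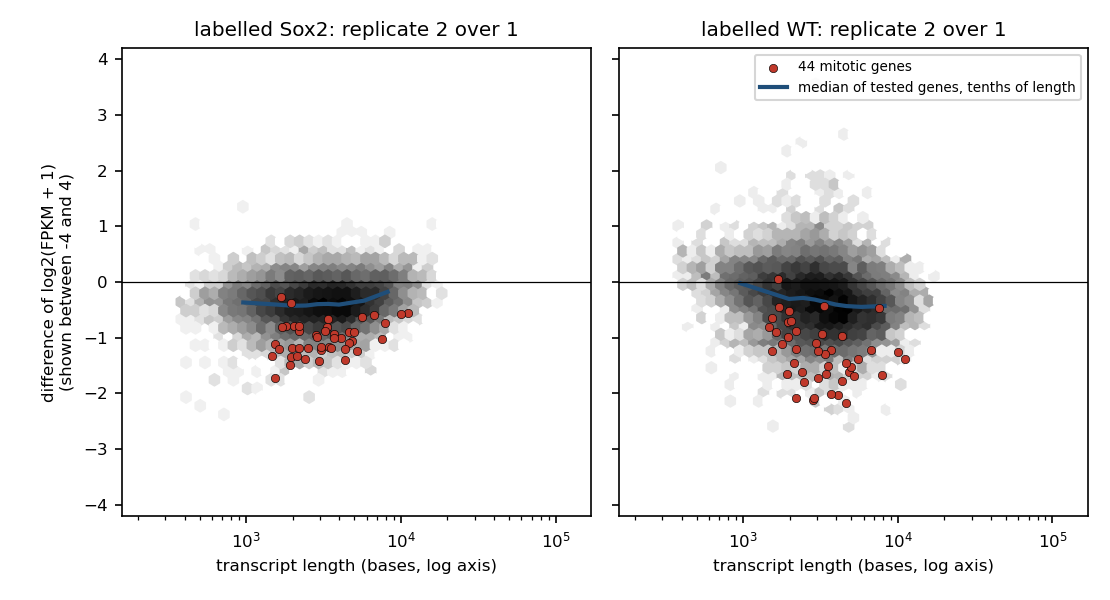
Difference of log2(FPKM + 1) between replicate 2 and replicate 1 against transcript length in bases on a log axis, in Sox2-labelled libraries (left panel) and labelled WT (right panel), with all tested genes as grey hexagons, darker where more genes fall, their running median as a blue line and the 44 mitotic genes as red points. Nearly all red points lie under the line in both panels, and in the right panel the line falls with length.

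A further list held 92 mitosis genes that are not among the 44. Of the 92, all tested, 26 were lower, against 8.11% of all tested genes, 0 were higher and 66 did not pass. Their median log2 difference was -1.28. The difference was negative for all 92 as deposited, for 86 after median-of-ratios rescaling, for 88 after each of the other 2 rescalings, and for 81 of 87 with the length trend removed. The difference from the 44 genes was not tested. Genes of the inner kinetochore and of centromere assembly, listed together with the centriole gene Cenpj, were lower in 6 of 19 cases. Outer kinetochore genes were lower in 1 of 15, cohesin guards and condensins in 3 of 11 and motors and spindle proteins in 7 of 19. Further cytokinesis genes were lower in 2 of 5 and kinases and regulators in 7 of 23. Sgol2, the guardian of centromeric cohesin, had 1.25 and 0.641 FPKM in Sox2-labelled libraries, against 20.2 and 3.76 FPKM in WT-labelled libraries (log2 difference -2.39, limma adjusted p = 0.0287). Pbk, a mitotic kinase, had 6.83 and 1.51 FPKM, against 39.8 and 19.6 FPKM (log2 difference -2.71, limma adjusted p = 0.00976). The Cdk-binding protein Cks2 had 21.8 and 10.0 FPKM, against 82.1 and 55.1 FPKM (log2 difference -2.11, limma adjusted p = 0.00813). The values of these 3 genes did not overlap between the labels. Other genes past the threshold were the centromere genes Cenph, Mis18a and Cenpw, the outer kinetochore gene Pmf1, the condensin subunits Ncaph and Ncapd2, the minus-end motor Kifc1, the centrosome kinase Nek2, and Cep55 and Iqgap3 of cytokinesis. Without Sox2-labelled replicate 2, none of the 92 passed, and the count was 10, 12 and 61 without Sox2-labelled replicate 1, WT-labelled replicate 1 and WT-labelled replicate 2. It was 12 after rescaling without small RNA genes.

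Genes of DNA synthesis act in the S phase, before mitosis. Of 36 tested, 23 were lower, against 8.11% of all tested genes, 0 were higher and 13 did not pass. Their median log2 difference was -1.63. For all 36 the values labelled Sox2 lay below those labelled WT, as they did for 42.5% of all tested genes. Tk1, the thymidine kinase of dividing cells, had 8.88 and 4.29 FPKM in Sox2-labelled libraries, against 35.7 and 40.8 FPKM in WT-labelled libraries (log2 difference -2.44, limma adjusted p = 0.00326). Mcm7, a subunit of the replication helicase, had 14.3 and 5.82 FPKM, against 56.4 and 44.4 FPKM (log2 difference -2.32, limma adjusted p = 0.00585). Uhrf1, which maintains DNA methylation at the fork, had 9.80 and 2.92 FPKM, against 37.7 and 24.4 FPKM (log2 difference -2.27, limma adjusted p = 0.0126). The median ratio of replicate 1 to replicate 2 in WT-labelled libraries was 1.54 over these 36 genes, against 2.78 over the 44 mitotic genes. It was 2.12 over the 92 other mitosis genes. Without Sox2-labelled replicate 2 none of the 36 passed, while 17, 14 and 30 did without Sox2-labelled replicate 1, WT-labelled replicate 1 and WT-labelled replicate 2.

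**Figure D5:**
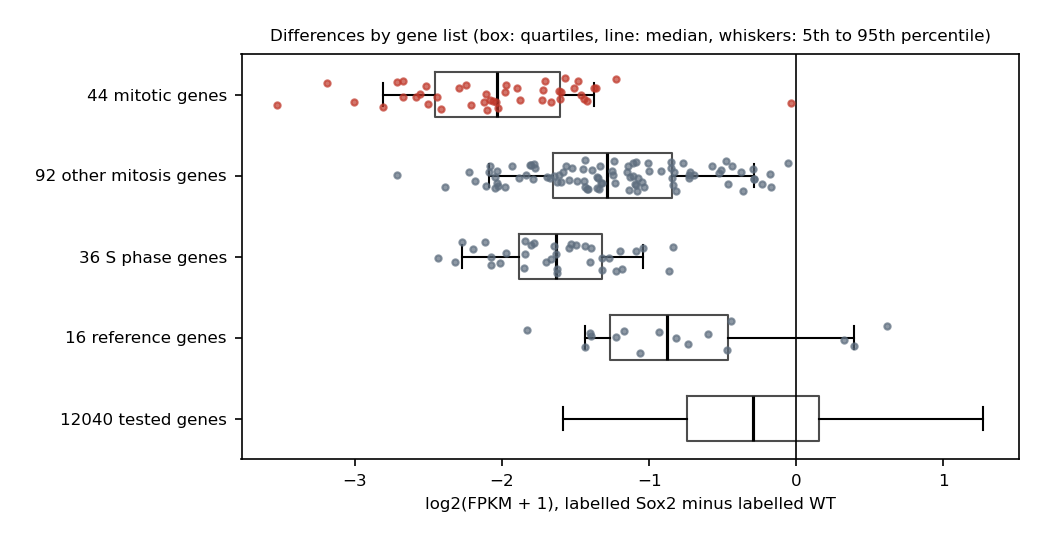
Log2 difference of FPKM + 1, labelled Sox2 minus labelled WT, of the 44 mitotic genes (red points), 92 other mitosis genes, 36 S phase genes and 16 reference genes (grey points) and all 12040 tested genes, with boxes for the quartiles, a line for the median and whiskers from the 5th to the 95th percentile. The medians are -2.03, -1.28, -1.63, -0.88 and -0.29 from top to bottom.

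Of 19 regulators of these genes, 5 were lower, against 8.11% of all tested genes, and 14 did not pass. The activators Mybl2 and Foxm1 join MuvB on the promoters of mitosis genes. Mybl2 had 2.19 and 0.955 FPKM in Sox2-labelled libraries, against 14.9 and 15.0 FPKM in WT-labelled libraries (9.52-fold lower, log2 difference -2.68, SE 0.40, limma adjusted p = 0.00266). Foxm1 had 5.14 and 1.90 FPKM, against 23.8 and 14.3 FPKM (5.42-fold lower, log2 difference -2.21, SE 0.45, limma adjusted p = 0.0112). The 2 WT-labelled values of Mybl2 stood close together. The E2F partner Tfdp1 (log2 difference -1.68), the atypical repressor E2f8 (-1.88) and the tumour suppressor Trp53 (-1.65) were the other 3 that were lower. E2f1 had a log2 difference of -0.64, the MuvB subunit Lin54 -0.48, the pocket protein Rbl2 0.15 and the Cdk inhibitor Cdkn1a -0.63, and none of these 4 passed. None of the 19 passed without Sox2-labelled replicate 2. Mybl2 was then 6.84-fold apart between the labels, against 15.7-fold without Sox2-labelled replicate 1.

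Of 16 genes often used as references, 6 were lower, against 8.11% of all tested genes. Their median log2 difference was -0.88, and 2 were lower after each of the 3 rescalings. With the length trend removed 4 were lower, and with a library left out 0 to 3 were. Gapdh had 300 and 236 FPKM in Sox2-labelled libraries, against 1091 and 824 FPKM in WT-labelled libraries, while Actb did not pass. The markers of alveolar cells ran the other way. The summed FPKM of 12 AT1 markers was 7105 and 8276 in Sox2-labelled libraries and 1555 and 815 in WT-labelled libraries, with 10 of 12 higher, among them Ager, and no marker at 0 in any library. The sum of 9 AT2 markers, genes of the surfactant-making cells, was 25940 and 18010 against 6125 and 995, with 9 of 9 higher. Without Ager, the most abundant AT1 marker, and Sftpc, the most abundant AT2 marker, the sums were 3845 and 4540 against 1060 and 658 for AT1 and 4765 and 3209 against 1122 and 199 for AT2. The sum of 7 airway markers was 3540 and 6030 in Sox2-labelled libraries and 1958 and 2181 in WT-labelled libraries, most of it Scgb1a1. Without Scgb1a1 it was 277 and 436 against 162 and 450, and the sums overlapped. Of the 5 airway markers tested, Scgb3a2 was higher and the basal cell factor Trp63 lower (limma adjusted p = 0.0145). Trp63 had 0.0605 and 0.0293 FPKM in Sox2-labelled libraries and 2.38 and 14.4 FPKM in WT-labelled libraries. Krt5 and Krt14 were at 0 in at least 1 library. The sum of 10 leukocyte markers was 865 and 626 in Sox2-labelled libraries and 300 and 99.95 in WT-labelled libraries, most of it Lyz1. Without Lyz1 it was 143 and 54.99 against 54.6 and 39.9. Of 8 leukocyte markers tested, Lyz1 and Csf1r were higher, and 6 of the 10, among them Ptprc, overlapped between the labels. Lyz1 had 723 and 571 FPKM in Sox2-labelled libraries, against 245 and 60.03 FPKM in WT-labelled libraries. Its neighbour Lyz2, counted here among the AT2 markers, had 1102 and 812 FPKM, against 241 and 58.3 FPKM. Whether Lyz1 stands for leukocytes in these libraries, or shares reads with Lyz2, was not tested. The sums were 141 and 66.9 against 47.1 and 20.6 for 9 endothelial markers (2 higher), 330 and 118 against 143 and 34.3, with overlap, for 10 mesenchymal markers (0 of 9 tested higher, Lum at 0 in 1 library), and 202 and 928 against 56.3 and 256, with overlap, for 7 erythroid markers (1 of 5 higher). The markers named were chosen after their values were seen. The part of these differences in the levels of the mitotic genes was not tested.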

How the data were processed

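Poly-A RNA of sorted alveolar type 1 cells was sequenced in 4 libraries, grouped by their titles as labelled Sox2 and labelled WT (n = 2 each). Per the file headers, the deposited values are FPKM of each gene, with bounds below and above. Per the submitters' processing notes, the authors used TopHat2, Bowtie2, Cufflinks and Cuffdiff with mm10. Their versions, the annotation and the strandedness are not given in the sources at hand, and FPKM hold no counts, so depth is unknown. Another table, whose group columns match no label, was not used.

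Entries of the same symbol were added (267 genes), and Rn45s, with a failed status, was left out. The 12040 genes whose mean reached 1 FPKM were tested on log2(FPKM + 1), which understates the change of low genes, with limma 3.58.1 in R 4.3.3 (lmFit, eBayes with trend, two-sided, Benjamini-Hochberg, threshold 0.05), leaving 2 residual degrees of freedom. The procedure was tested on simulated data with 200 changed genes. The simulated noise was independent between genes, so that test does not cover shifts that many genes of a library share. The members, lists, tests and motifs were chosen with earlier results of these data known. Per-library values were given for the 2 or 3 most abundant members of each role and the 2 with the largest difference. From other lists up to 3 genes past the threshold per subgroup were named, and Ccnb1, Cdc25c, Incenp, Cdca5, Nusap1, Ect2, Ndc80, Nuf2, Espl1 and Pttg1 were detailed after their values were seen. Alternatives were a pseudocount of 0.1, no filter or a filter at 5 FPKM, 3 rescalings, 2 variance models, the replicate number as a block, each library left out and, added after seeing the data, removal of a trend with transcript length. Calls of reference genes in the higher direction are not reported here.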

Additional observations from a re-analysis of the deposited data

How the results depend on the processing

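The direction of 43 mitotic genes held under every alternative in which they were tested, and Pttg1 turned positive, without passing, under median-of-ratios rescaling (0.29), quantile normalization (0.26), rescaling without small RNA genes (0.24), removal of the length trend (0.41) and in 1 of the 4 fits with a library left out, which ran from -0.18 to 0.10. Changing the filter, the variance model or the use of a replicate block leaves each gene's log2 difference as it was. The direction could therefore not turn under those alternatives. The number of calls was less stable than the direction. Without the filter on low values, 3 genes passed in limma in place of 1482 (0.0163% of those tested lower), and 0 of the 44 mitotic, 0 of the 92 other mitosis and 0 of the 36 S phase genes, while 31 mitotic genes had an unadjusted p under 0.05 and 1251 genes were higher and 2618 lower at that level. With 1 library left out, the calls numbered 234 to 1724 over all genes, 2 to 43 of the mitotic genes, 0 to 61 of the other mitosis genes and 0 to 30 of the S phase genes. A filter at a mean of 5 FPKM, which kept 34 of the 44 genes, gave 21 mitotic and 16 other mitosis genes (9.16% of all lower), and rescaling without small RNA genes gave 18 and 12. The variance model without trend gave 25 mitotic genes (6.69% of all lower). The titles give the groups the same replicate numbers, and no label says what a number stands for. Across the tested genes, the deviation of Sox2-labelled replicate 1 from its label's mean correlated with that of WT-labelled replicate 1 at r = 0.234. With 2 libraries per label, replicate 2 mirrors this and adds no further comparison. With the replicate number as a block, 3872 genes were called (22.7% of all lower), with 43 mitotic, 73 other mitosis and 36 S phase genes among them. The cause of these changes was not tested. The low end of FPKM limits genes such as Ttk and Cdc25c, which stood under 1 FPKM in at least 1 library.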

Other observations

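The listed position of 6 of the 44 mitotic genes overlapped that of another gene in the tables, and the strandedness of the counting is not given. The overlaps were 863 bases of Ccna2 with Exosc9, 52 bases of Cdc20 with Elovl1, 208 bases of Nusap1 with Oip5, and 240 and 1595 bases of Kif20a with Brd8 and Cdc23. Tpx2 and Anln overlapped entries for small RNAs listed at 0 FPKM in every library. Elovl1, a fatty acid elongase, had 66.2 and 50.2 FPKM in Sox2-labelled libraries and 42.0 and 32.5 FPKM in WT-labelled libraries, the order opposite to that of Cdc20. Exosc9, a subunit of the RNA exosome, had 7.88 and 6.15 FPKM against 15.6 and 8.48 FPKM. Cdc23 had 9.40 and 4.15 FPKM against 16.0 and 7.60 FPKM, and Brd8 had 11.9 and 7.64 FPKM against 12.7 and 6.14 FPKM. Kif20a itself had 3.71 and 1.35 FPKM against 17.1 and 3.50 FPKM. Whether reads of Cdc23 or Brd8 entered the values of Kif20a was not tested. Pttg1 overlapped no listed gene.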
